A study of Mus musculus with 6 samples.

Results

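The genes described here are 10 members of the BCL2 family that set the survival and death of T cells, chosen by name and role, by a rule that uses no measured value, though with earlier results of these data known. They are the pro-survival genes Bcl2, Bcl2l1, Mcl1 and Bcl2a1b, the effector genes Bax and Bak1, and the BH3-only genes Bcl2l11, Bid, Pmaip1 and Bbc3. They are 10 of 56941 genes in the table of counts, and all 10 were among the 13299 genes with enough counts to be tested.

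RNA was sequenced from 3 vehicle-treated and 3 S1P-treated samples labelled as CD8+ T cells of the spleen of B6 mice. All samples were activated for 3 days with anti-CD3, anti-CD28 and recombinant IL-2, and either vehicle or sphingosine-1-phosphate (S1P), a lipid signal read by S1PR1 and related receptors, was added at 24 h, S1P at 5 µM. No genotype other than B6 is given for the animals these cultures came from, and no age. Replicates are called biological without saying whether they came from separate animals or cultures, so p-values measure the spread between these samples. The comparison asks how S1P during activation alters the survival and death genes of these cells.

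Proteins of the BCL2 family decide whether the outer membrane of the mitochondria stays closed. BAX and BAK1, the effectors, open it and release cytochrome c, which leads to caspase activation. BCL2, BCL2L1 (BCL-XL), MCL1 and BCL2A1 hold the effectors and the BH3-only proteins, and BH3-only proteins such as BCL2L11 (BIM) are made or activated under stress or loss of cytokine and free or trigger the effectors. In T cells, BCL2 and MCL1 are known for sustaining naive and activated cells, and BIM for the death of activated cells when the response contracts.

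The vehicle samples held 13636095 to 17089831 counts each and the S1P samples 12048880 to 17384084. S1P replicate 2 stood apart in that 7.80% of its counts fell on genes encoded in mitochondria, against 4.10% to 4.93% in the other samples. Of 8 markers of CD8 T cells, all were measured well enough to test, with summed normalized counts of 23269 to 27106 in vehicle and 21132 to 24427 after S1P, and 2 of the 8 fell and 1 rose. The 2 that fell were the coreceptor genes themselves, Cd8a by 0.67 (edgeR adjusted p = 0.000243) and Cd8b1 by 0.55 (edgeR adjusted p = 0.00767), changes of the size of those of Bcl2, Bid and Pmaip1. All 10 B cell markers were also tested (16158 to 19741 in vehicle and 17042 to 18537 after S1P), of which 3 fell and 1 rose. All 4 CD4 T cell markers were tested as well (3336 to 3961 and 3662 to 4645). Among them Cd40lg rose by 0.50 and Zbtb7b by 0.37. Cd4 itself (log2 fold change 0.10, edgeR adjusted p = 0.487) and Foxp3 (0.02, edgeR adjusted p = 0.938) did not pass, and their groups overlapped. Only 2 of 9 myeloid markers and 1 of 4 NK cell markers were tested, with Lyz2, Cd14 and Csf3r at or under 3 counts in every sample. The labels describe the starting cells as naive CD8+ T cells purified from splenocytes, whereas the study's methods name purified naive T cells or whole splenocytes. The samples held B cell and CD4 T cell transcripts beside those of CD8 T cells. Some of these markers changed with the treatment, beside 23.1% of all tested genes by the rule given below. Their part in the results was not tested. In such bulk samples, fewer cells of a type and less RNA per cell cannot be told apart.

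Bcl2a1b is not alone in the genome. The mouse has several near-identical Bcl2a1 genes, and the first 90 coding bases of 3 of them are given here (GRCm39, 5′ to 3′), with capitals at the positions where the 3 differ.
Bcl2a1a: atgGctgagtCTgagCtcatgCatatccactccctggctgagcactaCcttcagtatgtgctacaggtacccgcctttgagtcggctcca
Bcl2a1b: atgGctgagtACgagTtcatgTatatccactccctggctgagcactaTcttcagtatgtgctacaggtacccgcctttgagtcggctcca
Bcl2a1d: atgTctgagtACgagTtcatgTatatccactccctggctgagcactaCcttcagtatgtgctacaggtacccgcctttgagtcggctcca
Over the whole coding sequence of 516 bases, Bcl2a1b and Bcl2a1d differed at 6 positions (98.8% identity), with a longest identical run of 217 bases. Bcl2a1a was 97.9% identical to Bcl2a1b and 98.6% identical to Bcl2a1d. Of all stretches of 31 bases in the transcripts of Bcl2a1b, 86.0% occurred in another gene as well, and 48.5% of its exon bases lie under Gm29094, a gene annotated on the same strand. How reads that match several of these genes were counted is not given in the sources used here, so the split between the copies is uncertain.

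The 250 bases before the annotated start site are shown for the pro-survival genes called in opposite directions below. Both were read from GRCm39 in the direction of transcription, and neither window overlaps the exons of its own gene. Whether exons of other genes lie in them was not tested. Capitals mark the match to a searched motif, which only the Bcl2a1b window holds.
Bcl2 (chr1:106642061-106642310, minus strand): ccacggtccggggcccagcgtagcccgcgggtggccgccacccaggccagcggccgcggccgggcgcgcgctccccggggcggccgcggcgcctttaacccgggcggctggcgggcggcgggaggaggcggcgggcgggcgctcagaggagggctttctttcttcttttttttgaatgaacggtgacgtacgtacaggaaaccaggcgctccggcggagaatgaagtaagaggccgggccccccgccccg
Bcl2a1b (chr9:89081012-89081261, plus strand): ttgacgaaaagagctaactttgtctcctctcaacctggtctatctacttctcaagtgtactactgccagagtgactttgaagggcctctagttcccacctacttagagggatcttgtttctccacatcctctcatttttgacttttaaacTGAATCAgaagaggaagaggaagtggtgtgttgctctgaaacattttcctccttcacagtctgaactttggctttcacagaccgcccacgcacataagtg
The Bcl2 window is 74.0% G or C and the Bcl2a1b window 44.4%. The windows of the 10 members were searched on both strands for CRE (TGACGTCA), AP-1 (TGANTCA), C/EBP-ATF (TGATGNAAT), STAT (TTCNNNGAA), FOXO (GTAAACA), hypoxia response (ACGTG), kB and p53 motifs. None of the motifs spelled out here lies within another. Among 21770 windows of protein-coding genes, CRE matches stood in 1.69%, AP-1 in 6.17%, C/EBP-ATF in 0.80%, STAT in 7.70%, FOXO in 2.72%, hypoxia response in 17.0%, kB in 7.62% and p53 in 0.01%. Members with a match were Bcl2a1b (AP-1, beginning 100 bases before the start), Bcl2l11 and Bak1 (FOXO, 227 and 69 bases before it) and Bax (hypoxia response on both strands of one palindrome, 6 bases before it). The windows of Bcl2, Bcl2l1, Mcl1, Bid, Pmaip1 and Bbc3 held no match, which says only that these letters are not in this window.

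Of the 10 members, 4 passed the test between S1P and vehicle, with a rise and a fall among both the pro-survival and the BH3-only genes. Bcl2 and Pmaip1 rose and Bid fell. Bcl2a1b also fell, but most other settings lost its call. The other 6, among them Mcl1, Bcl2l1 and Bcl2l11, did not pass. Calls here rest on edgeR's quasi-likelihood test, with p-values adjusted by Benjamini-Hochberg over every tested gene: the adjusted p had to be 0.05 or less and the log2 fold change 0.3 or more in size. By this rule 23.1% of all tested genes were called, 12.7% higher and 10.4% lower. Among members, 4 of 10 were called, 2 higher and 2 lower, and in these 4 every S1P value lay on one side of every vehicle value, as in 45.6% of all tested genes. The members' median log2 fold change was -0.07 and that of all tested genes 0.01. Pmaip1 is among the apoptosis genes that the study picked out on these samples, so its rise is not independent evidence of a direction.

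**Figure D1:**
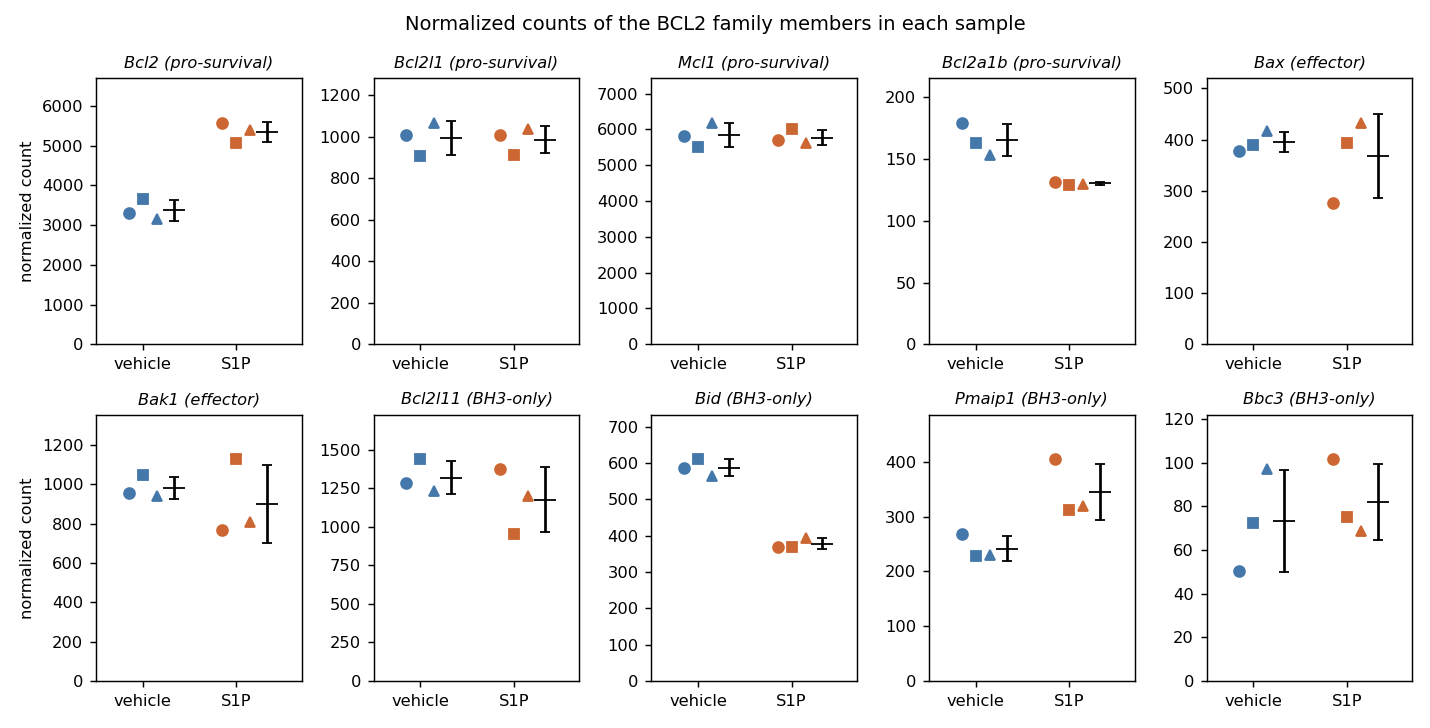
Normalized counts (y axis, from 0) of the 10 members in each sample, vehicle in blue and S1P in orange, with circle, square and triangle for replicates 1, 2 and 3; the black dash and bars give the mean and SD of 3 samples. The 3 S1P samples lie apart from the 3 vehicle samples for Bcl2 and Pmaip1 (higher) and for Bid and Bcl2a1b (lower).

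Among the pro-survival genes, Bcl2 (ENSMUSG00000057329, chromosome 1, 106465908 to 106642060, minus strand), whose protein holds BIM and BAX, had normalized counts of 3311, 3668 and 3154 in vehicle replicates 1 to 3 and of 5580, 5081 and 5402 in S1P replicates 1 to 3. Every S1P sample was above every vehicle sample, and the gap between the groups was wider than the range within either. Bcl2 rose 1.59-fold, a log2 fold change of 0.67 (SE 0.08, 95% interval 0.50 to 0.83, edgeR adjusted p = 0.000132). Of all tested genes, 10.4% had a larger change in either direction. The log2 fold change stayed between 0.62 and 0.72 in all 14 alternative settings, each of which called it.

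Mcl1 (ENSMUSG00000038612, chromosome 3, 95566026 to 95570487, plus strand), which encodes a short-lived protein needed by activated T cells, had 5822, 5508 and 6187 normalized counts in vehicle and 5693, 6004 and 5612 after S1P. The groups overlapped fully. The log2 fold change was -0.02 (95% interval -0.17 to 0.14, edgeR adjusted p = 0.875).

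Bcl2l1 (ENSMUSG00000007659, chromosome 2, 152622582 to 152673655, minus strand), the gene of BCL-XL and of its shorter pro-death splice form, which gene counts do not separate, had 1007, 907.1 and 1066 normalized counts in vehicle and 1005, 913.0 and 1036 after S1P. These values also overlapped, replicate 2 being the lowest of its group in both. The log2 fold change was -0.01 (95% interval -0.19 to 0.17, edgeR adjusted p = 0.927), so these intervals leave out changes of the size seen for Bcl2.

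Bcl2a1b (ENSMUSG00000089929, chromosome 9, 89081262 to 89089889, plus strand), a copy of the gene of A1, an NF-kB target in lymphocytes, had 179.5, 163.3 and 153.4 normalized counts in vehicle and 131.8, 129.0 and 130.2 after S1P. The S1P samples lay close together below the vehicle samples. Bcl2a1b fell by 0.34 on the log2 scale (SE 0.12, 95% interval -0.60 to -0.09, edgeR adjusted p = 0.0483). The call held with RLE scaling and, as the same fit, without a minimum change, and was lost in the other 14 alternatives. Leaving out any 1 of the 6 libraries ended it, with an adjusted p of up to 0.182 in edgeR's test. The log2 fold change was between -0.40 and -0.28 in those fits. It was between -0.37 and -0.32 in the other settings that counted Bcl2a1b alone. With the counts of Bcl2a1a, Bcl2a1b, Bcl2a1d and Gm29094 summed, an alternative added after seeing the data, the log2 fold change was 0.08 (edgeR adjusted p = 0.502).

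Bcl2a1d, the copy with most counts, had 650.9, 608.3 and 661.4 normalized counts in vehicle and 637.0, 793.0 and 736.8 after S1P. Its groups overlapped, with a log2 fold change of 0.17 (95% interval -0.03 to 0.36, edgeR adjusted p = 0.184). It was 0.10 without S1P replicate 2 (edgeR adjusted p = 0.4) and 0.25 without S1P replicate 1 (edgeR adjusted p = 0.0383), below the minimum change for a call.

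The effectors did not pass the test, and their S1P samples were spread more widely than their vehicle samples. Bax (ENSMUSG00000003873, chromosome 7, 45111015 to 45116325, minus strand) had 378.3, 389.5 and 417.2 normalized counts in vehicle and 275.9, 393.3 and 432.9 after S1P. S1P replicate 1 was the lowest of the 6 samples and S1P replicate 3 the highest. The log2 fold change was -0.12 (95% interval -0.42 to 0.19, edgeR adjusted p = 0.569), and 0.07 without S1P replicate 1.

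Bak1 (ENSMUSG00000057789, chromosome 17, 27238784 to 27247983, minus strand) had 956.2, 1049 and 942.9 normalized counts in vehicle and 767.1, 1128 and 806.5 after S1P. Here S1P replicate 2, the library with the high mitochondrial share, was the highest of all and the other S1P samples were the lowest. The log2 fold change was -0.13 (95% interval -0.40 to 0.14, edgeR adjusted p = 0.458). Without S1P replicate 2 it was -0.32 and was called (edgeR adjusted p = 0.00387). The part of the mitochondrial share in this difference was not tested.

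Among the BH3-only genes, Bid (ENSMUSG00000004446, chromosome 6, 120862525 to 120894171, minus strand), whose protein is cut by caspase-8 and granzyme B and then triggers the effectors, had 588.0, 610.4 and 565.9 normalized counts in vehicle and 369.2, 370.3 and 395.2 after S1P. All S1P samples were below all vehicle samples, and the samples within a group lay close together. Bid fell to 0.643 of its vehicle level, a log2 fold change of -0.64 (SE 0.08, 95% interval -0.81 to -0.46, edgeR adjusted p = 0.000225), and was called in all 14 alternatives, between -0.68 and -0.61. Of its exon bases, 34.5% lie under Bcl2l13 and Gm17812 on the opposite strand. The strand setting of the counting is not given in the sources used here, and Bcl2l13 was lower as well.

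Pmaip1 (ENSMUSG00000024521, chromosome 18, 66591604 to 66598636, plus strand), the gene of NOXA, which binds MCL1 and A1 and is induced by p53 and by stress factors such as ATF4, had 267.6, 228.4 and 229.2 normalized counts in vehicle and 404.4, 312.8 and 319.8 after S1P. The groups did not overlap, and replicate 1 was the highest in both. Pmaip1 rose 1.44-fold, a log2 fold change of 0.52 (SE 0.12, 95% interval 0.26 to 0.79, edgeR adjusted p = 0.00791). It was called in all 14 alternatives, with values between 0.38 and 0.60.

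Bcl2l11 (ENSMUSG00000027381, chromosome 2, 127967958 to 128004476, plus strand), the gene of BIM, had 1288, 1439 and 1231 normalized counts in vehicle and 1379, 953.8 and 1201 after S1P. The overlap was set by S1P replicate 1, which lay above vehicle replicates 1 and 3, while the other S1P samples lay below all of them. The log2 fold change was -0.16 (95% interval -0.41 to 0.09, edgeR adjusted p = 0.332). It was -0.29 without S1P replicate 1 (edgeR adjusted p = 0.0523) and -0.03 without S1P replicate 2.

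Bbc3 (ENSMUSG00000002083, chromosome 7, 16042318 to 16052130, plus strand), the gene of PUMA, a p53 target, was the least counted member, with raw counts of 59 to 124 per sample. It had 50.33, 72.57 and 97.29 normalized counts in vehicle and 101.5, 75.34 and 68.54 after S1P. These ranges overlapped almost fully, and the log2 fold change of 0.18 had a wide interval (-0.34 to 0.71, edgeR adjusted p = 0.603). The vehicle samples of Bbc3 had a coefficient of variation of 32.0%, the widest of the members, and the interval does not leave out a change of the size measured for Pmaip1.

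The spread between samples differed among members. The coefficient of variation after S1P was 22.2% for Bax, 22.0% for Bak1 and 18.1% for Bcl2l11, against 5.07%, 5.88% and 8.12% in vehicle. For Bcl2, Mcl1 and Bcl2l1 it was 4.73%, 3.59% and 6.51% after S1P and 7.80%, 5.82% and 8.10% in vehicle. In 5 of the 10 members it was higher after S1P, beside 66.2% of all tested genes.

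Levels of different genes were compared as normalized counts per kilobase of all annotated exons. Mcl1 had the highest level in both groups, 1673 ± 97.4 in vehicle and 1653 ± 59.3 after S1P (SD, n = 3). Bak1 (408.3 ± 24.0) and Bcl2 (366.6 ± 28.6) followed in vehicle, and their samples overlapped. After S1P, Bcl2 (581.2 ± 27.5) stood above Bak1 (374.1 ± 82.1) without overlap. The order in vehicle went on with Bax, Bcl2a1b and Bcl2l1, neighbours whose samples overlapped, at 212.8 ± 10.8, 200.2 ± 15.9 and 193.4 ± 15.7. Bcl2l11 (130.5 ± 10.6), Pmaip1 (88.5 ± 8.20), Bid (60.0 ± 2.27) and Bbc3 (15.3 ± 4.90) came last in vehicle, each apart from the next. After S1P, Pmaip1 (126.5 ± 18.7) came above Bcl2l11 (116.5 ± 21.1), with overlapping samples, and Bid (38.6 ± 1.50) stood further below them.

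Exon length counts every annotated exon of a gene, whether or not these cells use it, and the order depended on the length taken. For coding length the same whole-gene counts were divided by coding bases alone, which raises genes with many exon bases outside the coding sequence. Bcl2 has 9213 exon bases and 708 coding bases, and Mcl1 has 3491 and 993. Neither scale therefore settles which of these genes has more transcript. Per kilobase of coding sequence, Mcl1 led in vehicle at 5880 ± 342 and Bcl2 followed at 4771 ± 372, whereas after S1P Bcl2 led at 7563 ± 358 and Mcl1 followed at 5810.2 ± 208. Bid was above Pmaip1 in vehicle on this scale (985 ± 37.3 and 782 ± 72.5), and Pmaip1 was above Bid after S1P (1119 ± 165 and 634 ± 24.7), without overlap within either group.

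**Figure D2:**
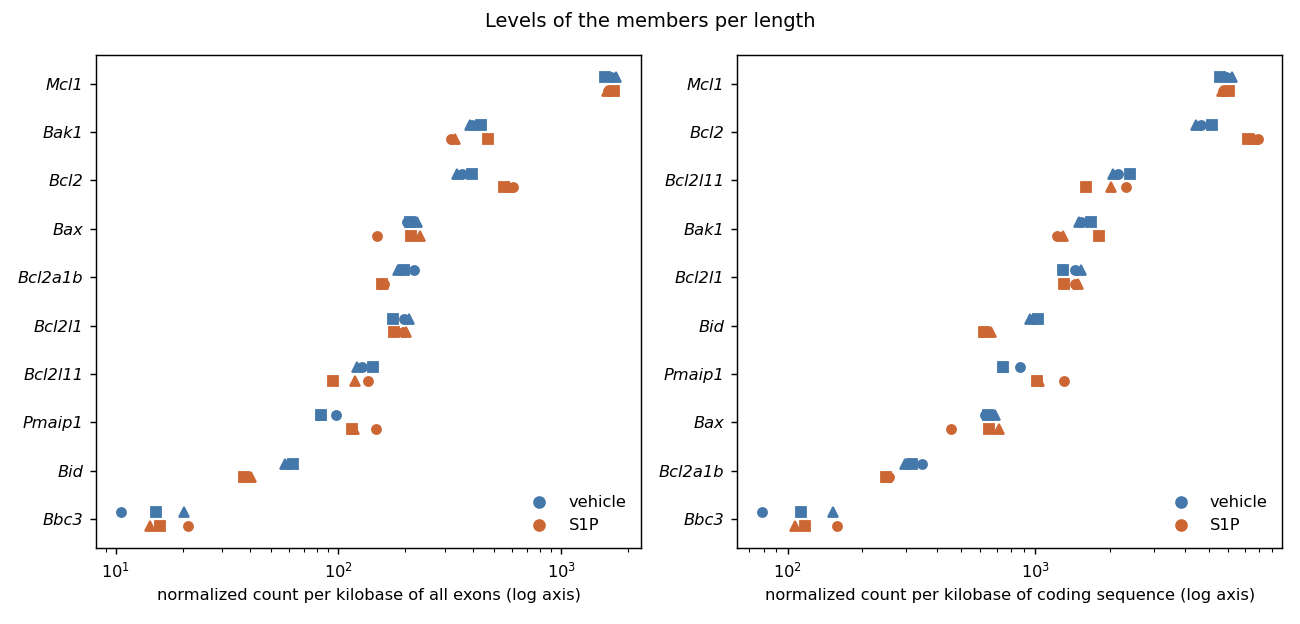
Level of each member as normalized count per kilobase of all exons (left) or of coding sequence (right), on log axes, with vehicle in blue above S1P in orange and circle, square and triangle for replicates 1, 2 and 3. By coding length Bcl2 lies below Mcl1 in vehicle and above it after S1P; by exon length Mcl1 leads in both groups.

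The 4 pro-survival genes together had 10319, 10246 and 10561 normalized counts in vehicle and 12410.1, 12127 and 12181 after S1P, and the groups did not overlap. Of these genes, Bcl2 alone was called higher. Its share of the pro-survival level per exon length was 15.1% ± 1.68 in vehicle and 22.5% ± 1.17 after S1P, while that of Mcl1 was 68.7% ± 1.80 and 64.0% ± 1.78. By coding length the shares of Bcl2 were 38.5% ± 3.22 and 50.3% ± 1.53 and those of Mcl1 47.4% ± 2.44 and 38.7% ± 1.95. The 2 effectors summed to between 1335 and 1439 normalized counts in vehicle and between 1043 and 1521 after S1P. The 4 BH3-only genes summed to between 2124 and 2350.0 in vehicle and between 1712 and 2254 after S1P. Both of these sums overlapped between the groups.

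Ratios within a sample set pro-survival genes against some partners their proteins are known to bind, as log2 ratios of levels per exon length. None was taken to Bid alone, nor of Bcl2 to Pmaip1. The ratios compare transcripts, not proteins, and are given by their values and overlap without a test. Each difference restates the changes of the genes in it, given above, and its direction depends on the pair chosen. The log2 ratio of Bcl2 to Bcl2l11 was 1.50, 1.48 and 1.49 in vehicle and 2.15, 2.55 and 2.30 after S1P. The vehicle samples were nearly equal, and all S1P samples were higher, by 0.84 on average. That of Bcl2 to Bax was 0.82, 0.92 and 0.61 in vehicle and 2.03, 1.38 and 1.33 after S1P, without overlap, a difference of 0.80.

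Ratios to Pmaip1 differed the other way. The log2 ratio of Mcl1 to Pmaip1 was 4.09, 4.24 and 4.40 in vehicle and 3.46, 3.91 and 3.78 after S1P, lower by 0.53 without overlap. That of Bcl2a1b to Pmaip1 was 1.15, 1.24 and 1.15 in vehicle and 0.11, 0.45 and 0.43 after S1P, a difference of -0.85. This last ratio carries the uncertainty of the Bcl2a1 copies. The ratios of Mcl1 and Bcl2l1 to Bcl2l11 and to Bak1 differed by 0.13 to 0.17 between group means, and that of Bcl2 to Bbc3 by 0.48, with overlapping groups in each. These differences moved when a library was left out. That of Bcl2l1 to Bak1 was 0.36 and that of Mcl1 to Bak1 0.27 without S1P replicate 2, and they were 0.01 and 0.03 without S1P replicate 1. That of Bcl2l1 to Bcl2l11 was 0.04 without vehicle replicate 2 and 0.27 without vehicle replicate 3 or S1P replicate 1. That of Mcl1 to Bcl2l11 was -0.01 without S1P replicate 2 and 0.29 without S1P replicate 1. That of Bcl2 to Bbc3 was 0.20 without vehicle replicate 3 and 0.71 without vehicle replicate 1.

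Summed over roles, the log2 ratio of pro-survival to effector genes was 1.97 ± 0.09 in vehicle and 2.19 ± 0.27 after S1P, and that of pro-survival to BH3-only genes 3.05 ± 0.10 and 3.12 ± 0.20 (SD, n = 3), with overlap in both. By coding length, in which Bcl2 weighs more, the differences were 0.41 and 0.37 and the groups did not overlap. By exon length the difference for the effectors was 0.22, but 0.08 without S1P replicate 1 and 0.35 without S1P replicate 2.

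**Figure D3:**
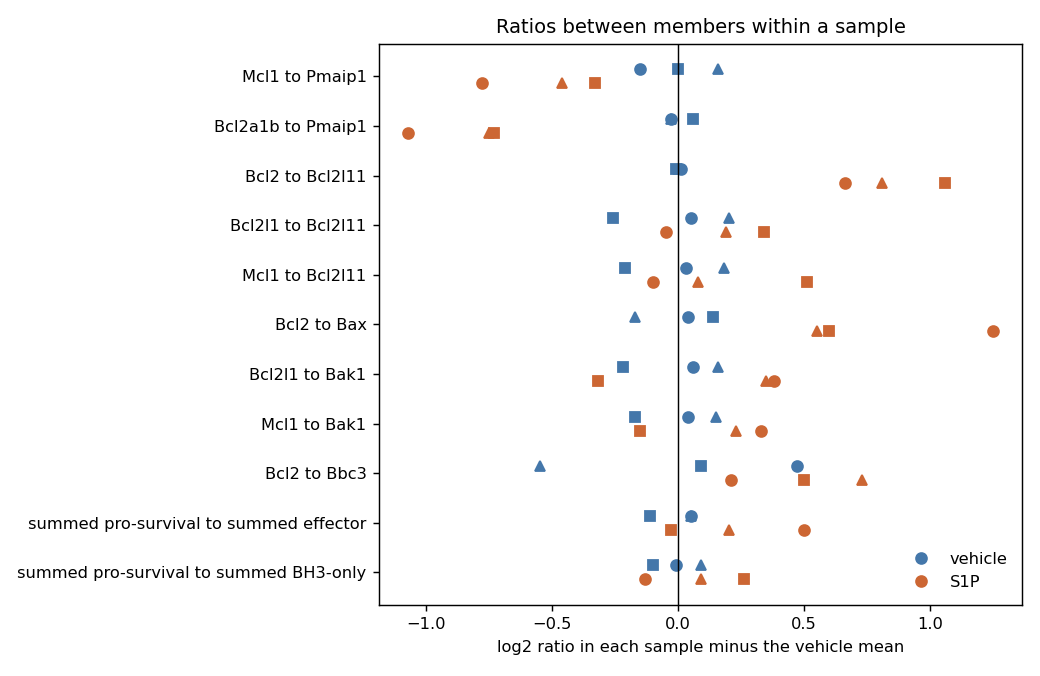
Log2 ratio between members in each sample (levels per exon length), shown as the difference from the vehicle mean, with vehicle in blue and S1P in orange and circle, square and triangle for replicates 1, 2 and 3. Ratios of Bcl2 to Bcl2l11 and Bax lie higher after S1P, ratios of Mcl1 and Bcl2a1b to Pmaip1 lie lower, and the others overlap.

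Of 18 other genes of the BCL2 family, 12 were tested. Of these, 4 rose and 1 fell, beside 12.7% and 10.4% of all tested genes. In this list the median log2 fold change was 0.09. The largest changes were those of Bnip3 and Bnip3l, relatives with a BH3-like region that are hypoxia-inducible and known for mitophagy, the removal of mitochondria. Bnip3 had 734.8, 1027 and 482.7 normalized counts in vehicle and 2604, 2274 and 2353 after S1P, a log2 fold change of 1.69 (SE 0.19, edgeR adjusted p = 0.000133). Bnip3l had 2305, 2835 and 1971 in vehicle and 5867, 5294 and 5618 after S1P, a log2 fold change of 1.24 (SE 0.11, edgeR adjusted p = 3.82e-05). In both genes all S1P samples were far above all vehicle samples, and the vehicle samples differed among themselves with replicate 2 the highest.

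Bcl2l2, the gene of the pro-survival protein BCL-W, had 74.7, 83.2 and 79.5 normalized counts in vehicle and 126.1, 126.4 and 133.7 after S1P, a rise of 0.70 in log2 fold change (edgeR adjusted p = 0.0029). Bcl2l14 rose by 0.98 from 19.2 to 33.6 normalized counts in vehicle to between 43.4 and 60.5 (edgeR adjusted p = 0.016). Its call ended without vehicle replicate 2, vehicle replicate 3 or S1P replicate 3 (log2 fold change 0.82 to 0.88, edgeR adjusted p of 0.0667 to 0.0716). Bcl2l13, the neighbour that overlaps Bid, fell by 0.30 (edgeR adjusted p = 0.041), but missed a threshold in 8 of 14 alternatives, among them the fits without vehicle replicate 1, 2 or 3 or S1P replicate 2 or 3.

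The rest of this list did not pass. Bad, a BH3-only gene, had a log2 fold change of -0.40 with a wide interval (-0.91 to 0.10) at raw counts of 20 to 44. Bmf (0.29) and Bik (0.00), also BH3-only, had raw counts of at most 29. The values were -0.15 for Bcl2l12, 0.00 for Bnip2 and 0.01 for Bnip1, whose intervals reached from -0.52 to 0.21, -0.18 to 0.19 and -0.22 to 0.25. Bcl2a1a, Bcl2a1c, Bok, Hrk, Bcl2l10 and Bcl2l15 had too few counts to test, at most 12 in any sample.

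**Figure D4:**
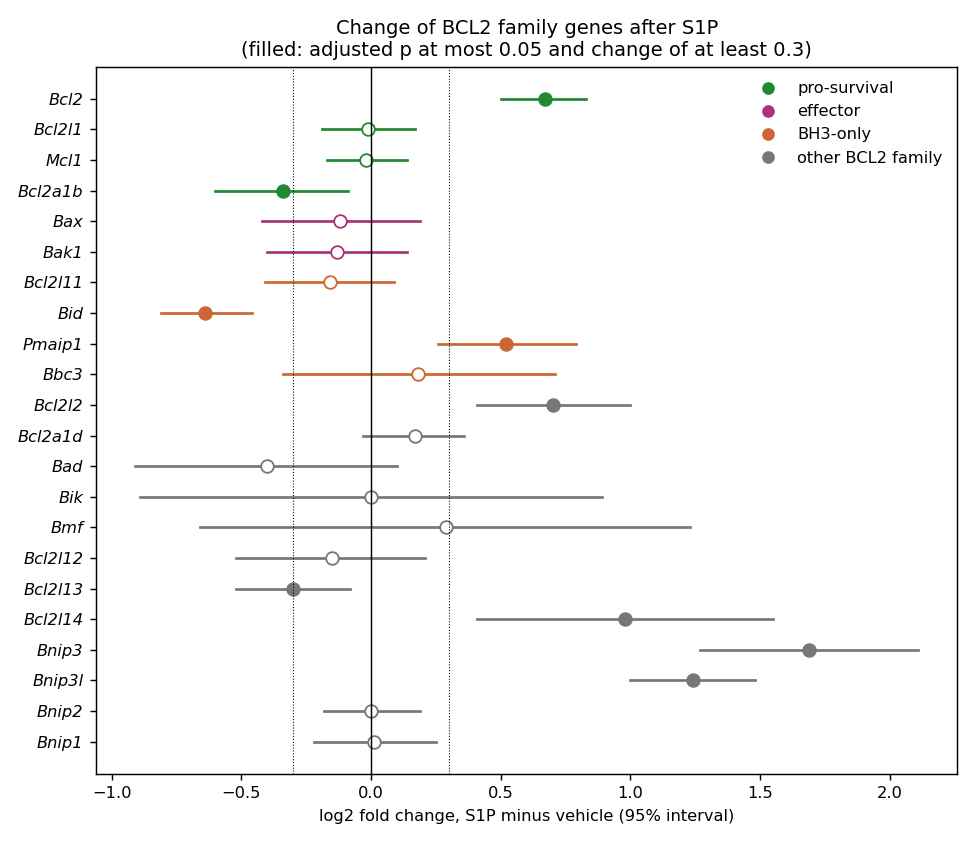
Log2 fold change of S1P against vehicle (x axis; points, with bars for 95% intervals) for the 10 members by role and for the 12 tested genes of the wider family. Filled points passed the test: Bcl2, Pmaip1, Bcl2l2, Bcl2l14, Bnip3 and Bnip3l to the right and Bcl2a1b, Bid and Bcl2l13 to the left.

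Next came genes that act after the mitochondrial step. Of 18 caspase, apoptosome and inhibitor genes, all tested, 2 rose and 2 fell, beside 12.7% and 10.4% of all tested genes. In this list the median log2 fold change was -0.10. Casp6, an executioner caspase also picked out by the study on these samples, rose by 0.82 from 351.5, 389.5 and 376.0 to 613.2, 679.3 and 682.0 normalized counts (edgeR adjusted p = 7.4e-05). Birc2, the gene of the ubiquitin ligase cIAP1, rose by 0.45 from 1045, 1061 and 1024 to 1427, 1424 and 1426 (edgeR adjusted p = 0.000437). Dffa, the gene of the inhibitor of the nuclease that cuts DNA in dying cells, fell by 0.42 (edgeR adjusted p = 0.00696). Htra2, the gene of a mitochondrial protease released in apoptosis, fell by 0.42 (edgeR adjusted p = 0.034), with 66.9% of its exon bases under genes on the opposite strand. That call ended without vehicle replicate 1, 2 or 3 or S1P replicate 2 (edgeR adjusted p of 0.0527 to 0.118).

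Of 18 transcription factors known to act on BCL2 family genes, 17 were tested. Of these, 6 rose and 0 fell, beside 12.7% and 10.4% of all tested genes. In this list the median log2 fold change was 0.27. At an adjusted p of at most 0.05 without a minimum change, 12 of the 17 passed, beside 28.5% of all tested genes. The study picked out Ddit3 and Atf3 on these samples, so their rises are not independent evidence of a direction. Ddit3, the gene of CHOP, a stress factor, rose from 175.3, 128.1 and 147.8 normalized counts to 325.0, 303.9 and 266.2, a log2 fold change of 0.98 (SE 0.13, edgeR adjusted p = 0.000337). Of its exon bases, 82.4% lie under genes on the opposite strand.

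Atf4, a stress factor known to induce Pmaip1, had a log2 fold change of 0.24 (95% interval 0.09 to 0.39, edgeR adjusted p = 0.022), below the minimum change. Trp53, the gene of p53, had one of -0.19 (95% interval -0.33 to -0.05, edgeR adjusted p = 0.0493), also below it. The adjusted p of Atf4 was over 0.05 in 7 of 14 alternatives and that of Trp53 in 9, among them the fits without vehicle replicate 1, 2 or 3 or S1P replicate 1 or 3 for both. Atf3 rose by 1.65 (edgeR adjusted p = 6.42e-06) and Jun by 1.27 (edgeR adjusted p = 4.04e-05), both of AP-1 and stress responses. Stat3 rose by 0.51 (edgeR adjusted p = 0.00134), Hif1a by 0.36 (edgeR adjusted p = 0.00474) and the NF-kB gene Rel, which is known to induce Bcl2a1 genes, by 0.35 (edgeR adjusted p = 0.00277).

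Of 20 genes whose proteins bind, cut, modify or degrade BCL2 family proteins, all tested, 0 rose and 2 fell in edgeR's test (median log2 fold change -0.01), and 7 passed at an adjusted p of at most 0.05 without a minimum change, beside 23.1% and 28.5% of all tested genes. Akt1, a kinase that phosphorylates BAD, fell from 2099.5, 2057 and 2116 normalized counts to 1530.2, 1378 and 1710.1, a log2 fold change of -0.44 (SE 0.08, edgeR adjusted p = 0.00208), with 52.0% of its exon bases under genes on the opposite strand. Dynll2, a dynein light chain that binds BMF, fell by 0.33 (edgeR adjusted p = 0.0149). It lost the call without vehicle replicate 2 or 3 (edgeR adjusted p = 0.0591 and 0.0766) and without S1P replicate 1, where the change of -0.25 was below the minimum.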

How the data were processed

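Counts of 6 samples, 3 vehicle and 3 S1P, were analysed, and all columns were used. The authors made strand-specific libraries of poly(A) RNA, sequenced them as read pairs, used Trim Galore for trimming, STAR for alignment to GRCm39 and featureCounts for counting reads per gene. Deposited values are whole-number counts without normalization. Tool versions, annotation release, strand setting and treatment of reads matching several genes are not given in the sources used here. The study tested with DESeq2.

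Counts were tested with edgeR 4.0.16 (R 4.3.3, limma 3.58.1; filterByExpr, TMM, quasi-likelihood test, treatment as the only term, Benjamini-Hochberg over 13299 genes), fitted on the whole table. Normalized counts are counts divided by the TMM-scaled library size relative to the geometric mean of the samples. The fits were tested on simulated data. Positions, exon and coding lengths and start sites came from GENCODE vM39 on GRCm39, which holds 56323 of the 56941 identifiers. Sequences shared between genes were counted as stretches of 31 bases of all transcripts, on either strand. Counting error limits genes with few counts, and floors cover counting error only.

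Named were all members and the other BCL2 family genes, each gene past both thresholds in 3 pathway lists, and Ddit3, Atf4 and Trp53. Of the markers, Cd8a, Cd8b1, Cd4, Cd40lg, Foxp3 and Zbtb7b were named after their values were seen, and Lyz2, Cd14 and Csf3r for their low counts. Members and lists were chosen with earlier results of these data known. Alternatives were DESeq2 1.42.0, limma-voom, RLE, upper-quartile or total-count scaling, no filter or at least 10 counts in every sample, no minimum change, the replicate block, coding length for ratios, and the fit without each library. Replicate numbers are shared by the groups, but the deviations of same-numbered samples correlated at 0.12, -0.006 and 0.048, so they were not taken as pairs.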

Additional observations from a re-analysis of the deposited data

How the results depend on the processing

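Bcl2, Bid and Pmaip1 kept direction and call in every alternative run. The number of members called higher was 2 throughout. The number called lower was 1 (Bid) with DESeq2, limma-voom, upper-quartile factors, total count only, no filter, at least 10 counts in every sample and the replicate block, and 1 to 2 when a library was left out; the 2 without S1P replicate 2 were Bid and Bak1. The sum of Bcl2a1b with Bcl2a1a, Bcl2a1d and Gm29094 had a log2 fold change of 0.08. Bcl2a1d, the copy with most counts, had one of 0.17 alone. The cause of the difference between the copies was not tested. Without a library, 3 to 6 other BCL2 family genes were called (3 without vehicle replicate 2 or 3 or S1P replicate 3) and 1 to 5 protein regulators (1 without vehicle replicate 3 or S1P replicate 1, 5 without S1P replicate 2, 4 without S1P replicate 3). Protein regulators called were 4 with total count only, 5 with no filter and 7 with adjusted p only, which gave 12 transcription factors. Of the 6 members that did not pass, Bak1 (-0.32 to -0.03) and Bcl2l11 (-0.29 to -0.03) kept their direction in every alternative run and the other 4 did not: with upper-quartile factors Bcl2l1 was 0.01 and Mcl1 0.0055, and without a library they ranged from -0.08 to 0.04 and -0.06 to 0.02, Bax from -0.26 to 0.07 and Bbc3 from -0.04 to 0.44. The same held for Bik (DESeq2 -0.02, voom -0.04, RLE -0.0037, total count -0.02, no filter -0.03, without a library -0.29 to 0.37), Bmf (-0.37 to 0.60), Bnip2 (-0.0019, -0.0023, -0.0021, -0.03, -0.03, and -0.08 to 0.05) and Bnip1 (total count -0.01, no filter -0.01, and -0.07 to 0.09). Bcl2l12 kept its direction, from -0.25 without vehicle replicate 3 to -0.04 without S1P replicate 2. The log2 ratio of Mcl1 to Bcl2l11 ranged from -0.01 to 0.29 and that of summed pro-survival to BH3-only genes from -0.02 to 0.18 without a library, and the latter was 0.37 by coding length.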
